A study of Mus musculus with 32 samples.

Results

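The sites described here are autosomal 1 kb stretches of the mouse genome that lay in peaks of histone H3 lysine 9 trimethylation (H3K9me3) in Morc1 knockout germ cells at E13.5, the earlier of 2 embryonic stages, and in both knockout and heterozygous germ cells at E16.5, the later one. The autosomes were divided into 1 kb bins from position 0, and a bin was called in a list where at least 50% of it lay in peaks. The bins were chosen by these calls. A bin was taken where it was called in the E13.5 KO list, not called in the E13.5 het list, and called in both E16.5 lists. This gave 21541 KO-early bins of 494208 autosomal bins called in at least 1 of the 8 lists. They made up 8.65% of the 249156 bins called in both E16.5 lists. Adjacent KO-early bins formed 16498 runs. Values from the 4 embryonic lists therefore describe the choice and are no evidence for it.

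H3K9me3 was profiled by chromatin immunoprecipitation and sequencing in male germ cells from the testis of mice that all carried the Mvh-Venus transgene, a fluorescent reporter of germ cells. The groups were heterozygous animals, Morc1 (+/-), called het, and homozygous knockouts, Morc1 (-/-), called KO, each at the embryonic stages E13.5 and E16.5 and the postnatal stages P0 and P3. Each group had 2 H3K9me3 samples and 1 deposited peak list, so there was no replicate error, read depth was unknown, and no test between genotypes was possible. The het animals themselves carried 1 disrupted copy of Morc1, and no group without a disrupted copy was used here. The labels do not say how many animals were pooled or how the allele was made. Expression of germ cell markers cannot be read from peak lists. At the germ cell genes Ddx4 (the Mvh of the reporter) and Dazl there was no KO-early bin. No peak of any of the 8 lists overlapped the body of Dazl, but Ddx4 was covered in each list. Peaks covered 50.033 kb of Ddx4 in het against 47.545 kb in KO at E13.5. They covered 49.97 kb in het against 6.791 kb in KO at E16.5. The cover was 11.681 kb in het against 12.164 kb in KO at P0, and 50.198 kb in het against 27.474 kb in KO at P3. The cause of these differences was not tested.

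H3K9me3 is a histone mark of constitutive heterochromatin and is laid down by SETDB1 and the SUV39H enzymes. In the mouse germ line it covers many retrotransposons and gene clusters and is found both as narrow peaks and as broad blocks. MORC1 is a nuclear ATPase of male germ cells, known for its part in retrotransposon silencing at the time when fetal germ cells regain DNA methylation. Male germ cells at these ages are prospermatogonia, also called gonocytes.

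Most KO-early bins lay away from gene starts, but 66 promoter windows of 64 protein-coding genes lay at least partly in them. A called bin need not be covered throughout, so some of these windows held no base of an E13.5 KO peak. The Ddx18 window, with 17 CG dinucleotides, held no base of a peak in any list. Trim60 and Trim61 have the same window, which was counted for each gene. A window here is the 300 bases from 250 before to 50 after a RefSeq transcript start (GRCm38.p6, the build mm10). Of the 66 windows, 47 lay wholly in E13.5 KO peaks, and 35 of those held no base of an E13.5 het peak. The 4 windows printed below were taken from these 35 after their values were seen. Il3ra and Vamp9 had the most CG dinucleotides among sites that extended a het peak and sites apart from het peaks, in that order, and Adam21 and Olfr1184 had none and lay in runs of 5 bins, Adam21 at an extension and Olfr1184 at a site apart. They are shown because they span the base composition of the marked windows. Capitals mark each CG dinucleotide, which reads the same on both strands, and each sequence is written 5′ to 3′ on the gene's strand.
Il3ra, chr14:14346245-14346544, + strand: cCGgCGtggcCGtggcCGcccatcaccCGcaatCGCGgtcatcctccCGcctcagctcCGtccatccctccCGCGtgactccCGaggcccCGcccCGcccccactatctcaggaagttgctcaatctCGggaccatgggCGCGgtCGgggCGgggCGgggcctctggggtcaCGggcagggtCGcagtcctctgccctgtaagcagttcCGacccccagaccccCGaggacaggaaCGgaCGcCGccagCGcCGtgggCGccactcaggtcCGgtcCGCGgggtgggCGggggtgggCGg
Vamp9, chr5:99906015-99906314, + strand: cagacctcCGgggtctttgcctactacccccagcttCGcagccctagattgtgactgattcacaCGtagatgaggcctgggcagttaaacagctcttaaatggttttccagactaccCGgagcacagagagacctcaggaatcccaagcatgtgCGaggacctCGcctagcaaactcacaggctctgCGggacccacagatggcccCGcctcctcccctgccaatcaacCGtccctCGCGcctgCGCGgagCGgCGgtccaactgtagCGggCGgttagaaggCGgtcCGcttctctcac
Adam21, chr12:81568425-81568724, - strand: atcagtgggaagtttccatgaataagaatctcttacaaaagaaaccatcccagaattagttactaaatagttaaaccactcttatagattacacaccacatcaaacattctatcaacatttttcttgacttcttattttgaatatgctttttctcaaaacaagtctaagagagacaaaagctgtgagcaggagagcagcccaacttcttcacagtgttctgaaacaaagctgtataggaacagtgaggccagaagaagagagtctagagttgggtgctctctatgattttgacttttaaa
Olfr1184, chr2:88486484-88486783, + strand: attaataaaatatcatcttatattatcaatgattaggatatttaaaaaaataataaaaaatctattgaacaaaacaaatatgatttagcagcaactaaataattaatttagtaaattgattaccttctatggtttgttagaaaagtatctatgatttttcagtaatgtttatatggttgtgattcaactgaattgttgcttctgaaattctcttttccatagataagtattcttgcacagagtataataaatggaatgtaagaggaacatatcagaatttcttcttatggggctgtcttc

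The Il3ra window, at the gene for the alpha chain of the interleukin 3 receptor, held 35 CG dinucleotides and had a GC content of 74.3%. All 300 bases lay in peaks at E13.5 in KO, at E16.5 in both genotypes and at P0 in het, and none did at P0 in KO or at P3 in either genotype. The Vamp9 window held 19, and its 300 bases in the E13.5 KO peak stood beside 9 bases in het peaks and 138 in KO peaks at E16.5. At P0 it had 103 bases in het peaks and 0 in KO peaks, and at P3 it had 0 in both. The windows of Adam21, which encodes a metalloprotease-like protein of the testis, and Olfr1184, which encodes an odorant receptor, held no CG dinucleotide and lay wholly in peaks in all 4 postnatal lists. These 4 windows show no rule for the others. The windows of Olfr183 and Vmn1r83 had no CG and no base in a postnatal peak, and that of Ccdc110, with 10, lay wholly in peaks in all 4 postnatal lists. Unlike the 4 printed windows, those of Vmn1r83 and Ccdc110 held bases of E13.5 het peaks, 300 and 78.

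Over all 66 windows, whether or not they lay in KO peaks themselves, the median was 2 CG dinucleotides per 300 bases, and 10.6% had 10 or more. Among 20085 windows of all autosomal protein-coding transcripts in the table the median was 14, and 57.9% had 10 or more. The low CG content was shared by other bins with the mark at E16.5. The share of windows with 10 or more was 9.38% of 32 where het and not KO was called at E13.5, 6.50% of 200 where neither was, and 3.06% of 425 where both were. The GC content of the 66 windows ran from 24.7% to 74.3%, with a median of 42.0%.

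For comparison, the bins called in both E16.5 lists were divided by their calls at E13.5. The KO-early bins were set beside 10363 het-early bins (called at E13.5 in het and not in KO), 90717 late bins (called in neither E13.5 list) and 126535 constant bins (called in all 4 embryonic lists). A further 13834 KO-transient bins were called at E13.5 in KO only and in neither list at E16.5. The het-early bins made up 4.16% of the bins called in both E16.5 lists, so there were 2.08 KO-early bins for each het-early bin. This ratio lay between 1.58 (chromosome 15) and 2.80 (chromosome 7) over the 19 autosomes. The E13.5 KO list was also the larger one, with 181.9 Mb in autosomal peaks against 159.7 Mb in het, and the part of this cover in the ratio was not tested. With all lists cut to the same number of peaks the ratio was 1.84. With the E13.5 KO list alone cut to the number of peaks of the het list it was 1.80. Both cuts kept the longest peaks and made the number of peaks equal, not the Mb covered.

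More of the bins called in KO alone at E13.5 were called in both genotypes at E16.5 than in neither. Of 39594 autosomal bins called in KO only at E13.5, 54.4% were called in both E16.5 lists, which are the KO-early bins, and 34.9% in neither. Another 7.01% had a call at E16.5 in het only, and 3.65% had one in KO only. Of 17353 bins called in het only at E13.5, 59.7% were called in both E16.5 lists and 29.4% in neither. The share called in both ranged over the autosomes from 42.4% to 64.9% for KO-only bins and from 43.4% to 68.8% for het-only bins, so the ranges of the genotypes overlapped.

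KO-early bins occurred on every autosome. Their density was highest on chromosome 16, with 11.5 bins per Mb, and lowest on chromosome 11, with 5.68 per Mb. As a share of the bins called in both E16.5 lists they varied less, from 7.56% on chromosome 7 to 9.57% on chromosome 16.

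By the 50% rule, most KO-early runs were edges of peaks that the het list already had at E13.5. A run was counted as an extension where the KO peak over it shared at least 1 bp with a het peak, and otherwise as a separate site. There were 10986 extensions, 66.6% of the runs (95% Wilson interval 65.9 to 67.3), and 5512 separate sites, 33.4% (32.7 to 34.1). These intervals cover counting error only and treat runs as independent, which neighbouring runs are not. On single chromosomes the separate share lay between 29.3% and 36.5%. The majority depended on bins that het peaks partly entered. Where a bin could hold no base of an E13.5 het peak, 57.5% of 9540 runs were separate sites, so under that stricter rule separate sites were the larger class. The extensions were divided evenly by side, with 4905 runs to the right of a het peak (the peak on the left) and 4960 to the left of one. In 1121 runs, 6.79% of all (6.42 to 7.19), the KO peak bridged het peaks that lay on both sides of the run.

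The het-early runs had nearly the same make-up. Of 8478 such runs, 31.6% (30.6 to 32.6) were apart from any KO peak, and the KO-early share was higher than this on 12 of 19 autosomes and lower on 7. Bridges were 4.22% (3.81 to 4.67) of the het-early runs against 6.79% of the KO-early runs. KO-transient runs differed more, with 50.6% (49.6 to 51.5) of 11101 apart from het peaks. The plot of run classes shows these shares side by side.

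**Figure D1:**
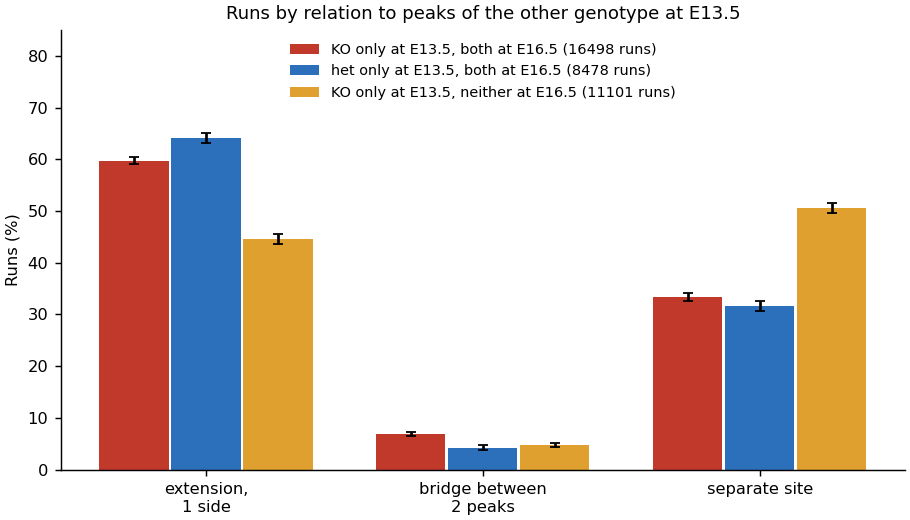
Bars give the percentage of runs that extended a peak of the other genotype on 1 side, bridged 2 of its peaks, or were separate from its peaks at E13.5, for KO-early, het-early and KO-transient runs. Error bars are 95% Wilson intervals for counting error only. Separate sites were 33.4% of KO-early and 31.6% of het-early runs, and 50.6% of KO-transient runs.

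The runs were short. A single bin made up 13019 of the 16498 runs (78.9%), 955 runs (5.79%) had at least 3 bins and 15 had at least 8. Of the het-early runs 83.3% were single bins and 3.87% had at least 3. The KO peak over an extension had a median length of 3.39 kb, of which a median of 2.23 kb was shared with het peaks and 0.909 kb was not. In het-early extensions the corresponding part outside KO peaks had a median of 0.694 kb. The KO peaks thus reached further beyond shared sequence than the het peaks did, and both excesses were shorter than the shared part.

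The same direction was seen at the edges of all shared peaks, from which the extensions are drawn. Among 40958 pairs of E13.5 autosomal peaks that overlapped between the genotypes, the KO peak was the longer in 60.2% and the het peak in 33.3%. Median lengths were 2268 bp in KO and 2038 bp in het. The KO peak reached at least 500 bp further at 12.2% of the 81916 edges and the het peak at 5.49%. These lengths come from the E13.5 lists that chose the bins and carry no test.

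Separate sites were mostly peaks of the smallest usual size. The KO peak over them had a median length of 1.001 kb, and 51.5% (50.2 to 52.8) were exactly 1001 bp long, the most common length in all 8 lists. In het-early separate sites 63.3% (61.5 to 65.1) of peaks had that length. The 90th percentile of KO peak length at separate sites was 1.94 kb, and the longest was 18.1 kb. Only 195 of the 5512 separate sites (3.54%) had at least 3 bins, against 760 of the 10986 extensions (6.92%).

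Most separate sites were well away from the het peaks of E13.5. Their median distance to the nearest het peak was 11.96 kb, with quartiles at 4.69 and 28.6 kb. Only 3.70% lay within 1 kb, 54.7% were more than 10 kb away, 11.9% more than 50 kb and 2.92% more than 100 kb. Het-early separate sites lay a median of 8.54 kb from the nearest KO peak. Since the E13.5 KO peaks covered more sequence, a shorter distance to them does not show a difference in placement. Over all KO-early bins, extensions included, 40.8% touched an E13.5 het peak and the median distance was 0.281 kb. Late bins touched one in 13.6% of cases, with a median of 3.01 kb, and KO-transient bins in 29.7%, with a median of 1.63 kb.

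**Figure D2:**
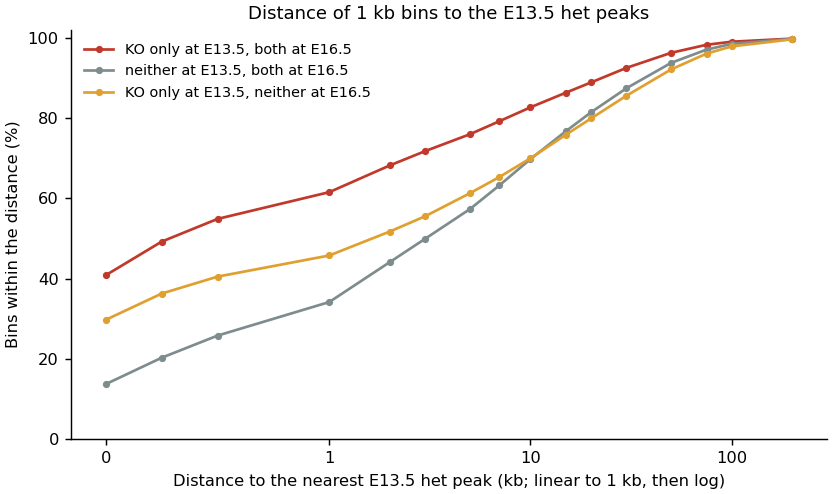
The x axis is the distance from a 1 kb bin to the nearest E13.5 het peak in kb, linear to 1 kb and logarithmic beyond, and the y axis is the percentage of bins within that distance. At distance 0 the curves start at 40.8% for KO-early bins, 29.7% for KO-transient bins and 13.6% for late bins, and at 10 kb the KO-early curve is at 82.8%.

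The 50% threshold set some of the bins. Of the 21541 bins, 12758 (59.2%) held no base of an E13.5 het peak and 9007 (41.8%) lay wholly in KO peaks. Just inside the threshold, 2905 bins had 40% to under 50% of their length in het peaks, with a median of 79.1% in KO peaks, and 3068 had 50% to under 60% in KO peaks. Just outside it, 4060 bins called in KO had 50% to under 60% in het peaks, with a median of 78.2% in KO peaks. Another 3205 bins not called in het had 40% to under 50% in KO peaks. Only bins called in both E16.5 lists were counted here, inside and outside the threshold. For 1034 bins (4.80%) the coverage in KO exceeded that in het by less than 20 percentage points.

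At E16.5 the extensions lay in peaks that also held an E13.5 het peak, and the separate sites mostly did not. This contrast largely follows from how the classes were defined, since extensions lay a median of 0 kb from an E13.5 het peak. The E16.5 het peak over an extension had a median length of 5.77 kb, and in 99.2% (99.0 to 99.3) it also overlapped an E13.5 het peak. Over separate sites the median E16.5 het peak was 2.63 kb, and 18.3% (17.3 to 19.4) overlapped an E13.5 het peak. For het-early separate sites the corresponding share, for KO peaks of E13.5, was 27.2% (25.5 to 28.9). The run lay inside the E16.5 het peak with at least 1 kb to spare on both sides in 42.6% of extensions and 18.8% of separate sites. Whether the E16.5 peaks over the remaining separate sites joined other sequence was not tested.

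The average picture around the runs shows how far the calls reached. At extensions, distances were counted from the run's bin next to the het peak. The bin 1 kb further from the het peak was therefore still in the run where the run had more than 1 bin. Its embryonic calls were then fixed by the choice. Of all extensions, bridges included, 78.1% were single bins. This bin was called at E13.5 in 18.2% of runs in the KO list and in 0.2% in the het list. At E16.5 it was called in 60.1% of runs in het against 55.2% in KO, at P0 in 52.5% against 56.3%, and at P3 in 45.9% against 52.0%. At 10 kb from the run's bin next to the het peak, on the same side, the share at P0 was 23.8% in het against 24.0% in KO. Around separate sites 54.3% of the bins 1 kb to the left and 63.6% of those 1 kb to the right of the middle bin were called in het at E16.5, against 21.9% and 21.4% at 10 kb. The bin to the right was more often itself in the run, since the lower of the middle pair was taken in runs with an even number of bins (called in E13.5 KO in 23.7% against 8.1%). The calls at the runs in E13.5 and E16.5 lists were fixed by the choice, and those at P0 and P3 were not.

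**Figure D3:**
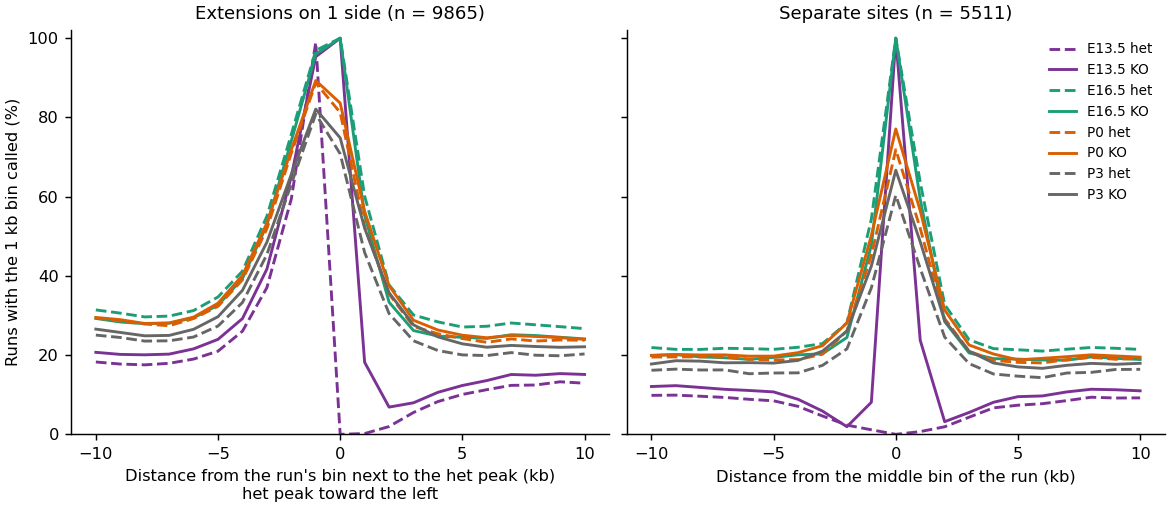
The percentage of runs with a called 1 kb bin is plotted against distance in kb, for 9865 extensions on 1 side (left panel, the het peak toward the left) and 5511 separate sites (right panel, 1 site at a chromosome end left out), with het lists dashed and KO lists solid. At distance 0 the E13.5 KO and both E16.5 lists are at 100% and E13.5 het at 0% by the choice of bins, and the P0 and P3 lists lie between 60.3% and 83.6%.

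The longest runs illustrate both classes. The longest was a separate site of 18 kb on chromosome 8 (chr8:50754001-50772000), in a gene-poor interval between Tenm3, a teneurin cell adhesion gene 1231 kb away, and Aga, a lysosomal hydrolase gene 2740 kb away. Peaks covered 0 kb of it in het against 17.9 kb in KO at E13.5, and all 18 kb in both genotypes at E16.5. They covered 17.8 kb in het against 17.7 kb in KO at P0, and 16.2 kb in het against 14.2 kb in KO at P3. The nearest E13.5 het peak was 1.67 kb away. The mark thus covered this block in both genotypes from E16.5 on, and at E13.5 in the KO list only.

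A second separate site, of 10 kb, lay 4 kb to its right (chr8:50776001-50786000), and at E16.5 a single peak of 55.0 kb in het against 33.7 kb in KO covered both. It had 0 kb in het peaks at E13.5 and 10 kb in each of E13.5 KO, E16.5 het and E16.5 KO. At P0 it had 1.75 kb in het against 6.13 kb in KO peaks, and at P3 it had 0 kb in het against 5.14 kb in KO. It was the longest run with the majority of its length in KO peaks and not in het peaks at both postnatal ages.

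Another separate site of 9 kb on chromosome 1 (chr1:7862001-7871000), between Pcmtd1 and Sntg1, was covered over its full 9 kb in every list but E13.5 het, where it had 0 kb. A separate site of 8 kb on chromosome 4 (chr4:72498001-72506000) lay 38.4 kb from the nearest het peak of E13.5. It was covered over 8 kb in both genotypes at P0, and at P3 over 4.74 kb in het against 0 kb in KO. A separate site of 7 kb on chromosome 14 (chr14:38231001-38238000) lay 127 kb from Nrg3, a neuregulin gene. It was covered in full in E13.5 KO and both E16.5 lists, and at P0 over 0 kb in het against 1.65 kb in KO. Its cover at P3 was 0 kb in het against 1.40 kb in KO. These 5 were the separate sites with the longest KO peaks at E13.5, and they had no common course after birth.

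The extensions among the 10 longest runs lay mostly in wide intervals between genes. On chromosome 5 a 10 kb run (chr5:59099001-59109000) extended a het peak in the interval between Pcdh7, a protocadherin gene, and G6pd2. It had 0.284 kb in het against 9.89 kb in KO peaks at E13.5 and between 9.47 and 10 kb in the other 6 lists. A 10 kb run on chromosome 14 (chr14:110781001-110791000), 25.8 kb from Slitrk6, a gene for a synaptic adhesion protein, had 0 kb in het against 9.53 kb in KO peaks at E13.5 and 10 kb in both at E16.5. Its cover was 6.29 kb in het against 6.80 kb in KO at P0, and 3.92 kb in het against 6.11 kb in KO at P3. The first of these runs kept its cover after birth and the second lost part of it in both genotypes.

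A 9 kb bridge on chromosome 17 (chr17:20910001-20919000) held Vmn1r232, a vomeronasal receptor gene. It lay inside a KO peak of 32.5 kb at E13.5. Peaks covered 0.451 kb of it in het against 9 kb in KO at E13.5, and 9 kb in both at E16.5. At P0 they covered 1.78 kb in het against 4.14 kb in KO, and at P3 0.561 kb in het against 0 kb in KO. A 9 kb extension on chromosome 6 (chr6:105012001-105021000), between the contactin genes Cntn6 and Cntn4, had 0 to 0.55 kb covered in the 4 postnatal lists. These were the longest runs with less than 50% of their length in peaks in each postnatal list. The remaining 3 of the 10 longest runs were 8 kb bridges on chromosomes 8, 12 and 16. At P3 they had 1.00 to 5.21 kb in het and 1.85 to 5.18 kb in KO peaks.

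The longest run with most of its length in het and not in KO peaks after birth was a 5 kb extension on chromosome 5 (chr5:79263001-79268000), between Igfbp7 and Adgrl3. It had 0.389 kb in het against 5 kb in KO peaks at E13.5 and 5 kb in both at E16.5. At P0 it had 4.01 kb in het against 2.34 kb in KO, and at P3 it had 4.94 kb in het against 2.42 kb in KO. The KO cover at P0 and P3 was just under 50% of its length, so the class depends on the threshold.

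The separate sites farthest from any E13.5 het peak were single bins, and 4 of the 5 farthest lay in gene bodies. The farthest, 322 kb away (chr4:36592001-36593000), lay in Lingo2, a gene for a leucine-rich repeat protein of neurons, and was covered over its full 1 kb in every list but E13.5 het. A bin in the organic anion transporter gene Slco3a1 (chr7:74395001-74396000), 285 kb away, was covered over 0.907 kb in the E13.5 KO list and over 0.932 to 1 kb in the 6 later lists. A bin in Sik2, a salt-inducible kinase gene (chr9:50917001-50918000), 277 kb away, had 0.840 kb in E13.5 KO and no cover in any postnatal list. A bin in Nrxn3, a neurexin gene (chr12:89680001-89681000), 263 kb away, had a cover of 0.759 kb in the E13.5 KO list and of 1 kb in both E16.5 lists. After birth it had 0.677 kb in P0 KO and none in the other postnatal lists. A bin between Dnajb13 and Coa4 (chr7:100523001-100524000), 271 kb away, had 0.748 kb in P0 KO and none in the other postnatal lists. Distance from a het peak therefore went with no single course after birth among these 5.

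The calls at P0 and P3 were not used to choose the bins. Most KO-early bins were still called after birth in both genotypes, 76.7% at P0 in het, 80.4% at P0 in KO, 64.0% at P3 in het and 70.4% at P3 in KO. Over all bins called in both E16.5 lists the shares were 82.6%, 84.6%, 73.7% and 77.0% in the same order. KO-early bins were thus called less often in each postnatal list than E16.5 bins as a whole, of which constant bins made up the largest group. All 4 postnatal lists called 53.4% of KO-early bins, against 64.5% of all bins called in both E16.5 lists, and no postnatal list called 11.2%.

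KO-early bins stood between late and constant bins in these shares. All 4 postnatal lists called 77.6% of the constant bins, higher than the KO-early share on 19 of 19 autosomes. They called 49.7% of the late bins, lower than the KO-early share on 14 of 19 autosomes. KO-early bins were also called a little less often than het-early bins. At P3 in het, 64.0% of KO-early and 69.8% of het-early bins were called, a difference of -5.80 percentage points, with KO-early bins lower on 19 of 19 autosomes. At P3 in KO the shares were 70.4% and 74.1%, with KO-early bins lower on 18 of 19. At P0 the differences were -2.21 points in het and -1.17 points in KO, with KO-early bins lower on 15 and 13 of 19 autosomes. The difference lay in the extensions. All 4 postnatal lists called 55.4% of KO-early and 62.4% of het-early extension bins, but 49.1% and 49.3% of separate bins. At P0 separate KO-early bins were called as often or slightly more often than separate het-early bins, 72.8% against 72.3% in het and 77.7% against 76.1% in KO. Without replicate lists the spread between chromosomes is the only spread available, and it does not stand in for the spread between animals.

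**Figure D4:**
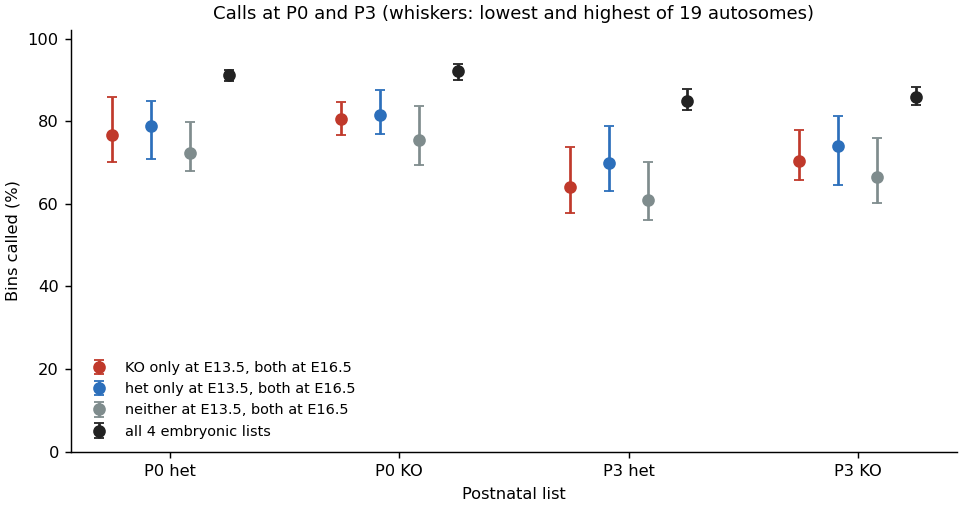
The y axis is the percentage of bins called in each of the 4 postnatal lists, shown for KO-early, het-early, late and constant bins over all autosomes (points). Whiskers run from the lowest to the highest of the 19 autosomes and are not errors of the points. KO-early bins are at 76.7%, 80.4%, 64.0% and 70.4% from left to right, below constant bins in each list.

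A difference between the genotypes seldom carried over from E13.5 to both P0 and P3. KO-early bins called in KO and not in het at both P0 and P3 numbered 570, 2.65% of the set, against 1.72% of all bins called in both E16.5 lists. The share was 2.47% in het-early bins and 2.59% in late bins, and KO-early bins had the higher share on 10 of 19 autosomes in either comparison. Called in het and not in KO at both ages were 442 KO-early bins, 2.05%, against 1.80% of all bins called in both E16.5 lists. The share was 2.45% in het-early bins and 2.49% in late bins. KO-early bins had the lower share on 14 of 19 autosomes against het-early bins and on 15 of 19 against late bins. In either direction the share was close to that in het-early and late bins. It was higher than in constant bins, of which 0.869% were called in KO only at both ages and 1.21% in het only, with KO-early bins higher on 19 and 18 of 19 autosomes. At P0, whatever the call at P3, 8.95% of KO-early bins were called in KO only and 5.21% in het only. These shares were 8.24% and 5.54% in het-early bins, 9.69% and 6.46% in late bins, and 3.57% and 2.78% in constant bins. At P3, whatever the call at P0, 13.0% of KO-early bins were called in KO only and 6.60% in het only. The corresponding shares were 11.3% and 7.05% in het-early bins, 12.2% and 6.77% in late bins, and 5.94% and 4.81% in constant bins, so KO-only calls were the more frequent in each set, and the P3 KO list also covered more of the autosomes, 303.8 Mb against 278.0 Mb in het.

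Extensions were called after birth more often than separate sites, as they also were, by a wider margin, among het-early bins. All 4 postnatal lists called 55.4% of the 14629 bins in extensions and 49.1% of the 6912 bins in separate sites, and no postnatal list called 10.2% and 13.4%. For the 3662 separate bins more than 10 kb from a het peak, the share in all 4 lists was 49.5%. KO-transient bins were seldom called again, with 2.94% in all 4 postnatal lists and 70.1% in none.

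KO-early bins lay in genes less often than the genome does, as did other bins with the mark at E16.5. Of the 21541 bins, 4285 (19.9%) overlapped the body of a protein-coding gene, against 41.7% of all autosomal bins within the span of peaks on each chromosome. The share was 19.8% for het-early bins, 19.8% for late bins and 17.7% for constant bins. On single chromosomes the KO-early share ran from 11.9% to 26.7%, was higher than the het-early share on 9 of 19 and lower on 10. KO-transient bins differed, with 40.1% in gene bodies, more than KO-early bins on 19 of 19 autosomes by 12.4 to 24.5 percentage points. Within 1 kb windows at gene ends lay 1.44% of KO-early bins, 6.53% of KO-transient bins and 3.09% of all bins.

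Separate sites lay in genes more often than extensions. The share in gene bodies was 24.8% for separate bins and 17.6% for extension bins, and it was the higher one for separate bins on 18 of 19 autosomes. Among separate bins more than 10 kb from a het peak it was 31.2%. The het-early bins showed the same order, with 22.6% of separate and 18.5% of extension bins in gene bodies, so this order was not particular to bins called first in KO.

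**Figure D5:**
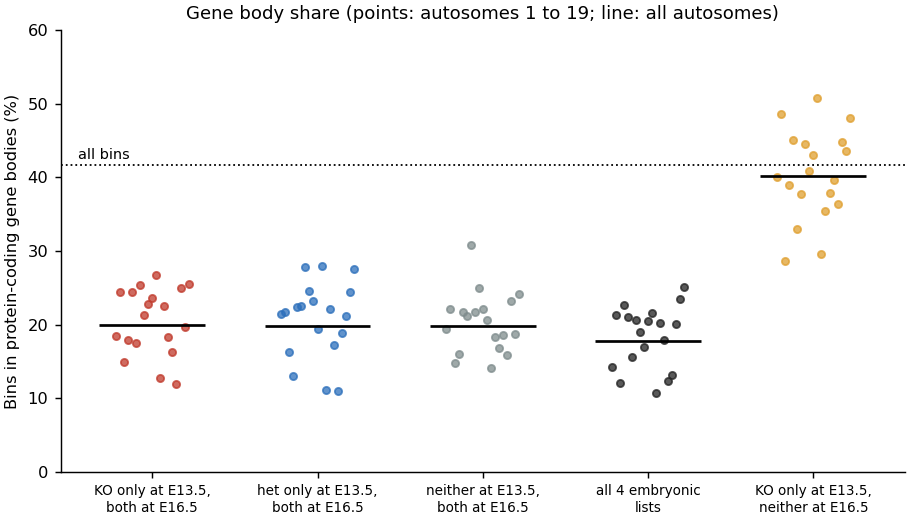
The y axis is the percentage of 1 kb bins that overlap a protein-coding gene body, with 1 point per autosome (in order from chromosome 1 at the left to 19 at the right of each group) and a line for all autosomes together. The dotted line marks all bins, 41.7%. KO-early bins are at 19.9%, next to het-early and late bins at 19.8%, and KO-transient bins are at 40.1%.

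A KO-early bin was found in 2170 of 20665 autosomal protein-coding genes, 10.5%. Most of these, 1303, had 1 such bin, and 31 had at least 10. A het-early bin was found in 669 of the 2170 genes (30.8%), which were 54.4% of all genes with a het-early bin. Long genes have more bins that can be called, and the genes with the most KO-early bins were long.

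The 10 genes with the most KO-early bins were 434 to 2271 kb long. Fstl5, a gene for a secreted follistatin-like protein, had 48 KO-early bins, 7.54% of its length, and 15 het-early bins. Of these 48, 28 were called at P0 in het, 34 at P0 in KO, 18 at P3 in het and 25 at P3 in KO. Csmd1, for a large membrane protein with complement control domains, had 39 KO-early and 25 het-early bins. Luzp2, for a leucine zipper protein, had 31 and 6, and Nrg3, for a ligand of the receptor ERBB4, also had 31 and had 10 het-early bins. In these genes the KO-early bins outnumbered the het-early ones, as they did over the genome. The ranking by KO-early bins favours such an excess, so it is no separate evidence.

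Dpp10, for a subunit that modulates potassium channels, had 33 KO-early and 43 het-early bins. Khdrbs2, for an RNA-binding protein of neurons, had 27 and 32. These were the only 2 of the 10 genes with more het-early than KO-early bins, and Khdrbs2 was the only one with fewer bins called in KO than in het at E13.5, 94 against 99. Pcdh15, for a protocadherin of hair cells, had 22 KO-early bins, Ptprd, for a receptor tyrosine phosphatase, also had 22, and Lrp1b, for a lipoprotein receptor relative, had 17.

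Alk, the gene for a receptor tyrosine kinase of the nervous system, had 17 KO-early and 0 het-early bins. Over its 736 kb (chr17:71868988-72604702), the het list called 64 bins and the KO list 157 at E13.5. The numbers, het first, were 99 and 76 at E16.5, 89 and 136 at P0, and 106 and 152 at P3. The KO list thus called more bins of Alk than the het list at 3 of the 4 stages and fewer at E16.5. Of its 17 KO-early bins 12 were called at P0 in het, 16 at P0 in KO, 13 at P3 in het and 16 at P3 in KO.

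Gene lists were compared by how many of their genes held a KO-early bin, beside 10.5% of all 20665 genes. A het-early bin was found in 1229 of all genes, 5.95%. The median number of KO-early bins per gene was 0 in each list and over all genes. Among 150 genes for neural adhesion and synaptic proteins, 67 (44.7%) held one, and 57 (38.0%) held a het-early bin. A late bin was found in 64.7% of them and a constant bin in 54.7%. Their median length was 159 kb against 17.5 kb for all genes, and per Mb of gene they had 5.40 KO-early bins against 4.40 for all genes. Of 67 protocadherin genes, 15 (22.4%) held a KO-early bin, and 16 held a het-early bin. Their median length was 86.1 kb. A late bin was found in 52.2% of them, against 20.5% of all genes. A constant bin was found in 64.2%, against 21.0% of all genes. Of 121 cytochrome P450 and UDP-glucuronosyltransferase genes, which serve drug and steroid metabolism and lie in clusters, 22 (18.2%) held a KO-early bin. A het-early bin was found in 14.9% of them, a late bin in 34.7% and a constant bin in 37.2%. Each of these was also above the share of all genes, so the excess was not particular to KO-early bins. The median length of these genes was 22.8 kb.

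By number of genes, vomeronasal receptor genes held KO-early bins about as often as genes in general, and olfactory receptor genes did so less often. Of 352 vomeronasal receptor genes 40 (11.4%) held a KO-early bin, with 25.1 bins per Mb of gene, and 22 held a het-early bin. Of 1104 olfactory receptor genes 32 (2.90%) held one, with 24.95 bins per Mb of gene. A gene of under 1 kb, the median length in both lists, counts a bin that it only partly fills, which raises bins per Mb for short genes. Over all genes there were 4.40 bins per Mb at a median length of 17.5 kb. Short genes also have fewer bins that can be called, so neither measure compares evenly with all genes. Of 388 Zfp zinc finger genes, many of which encode KRAB repressors, 35 (9.02%) held a KO-early bin. Of 195 serpin, lectin and defensin genes 19 (9.74%) did.

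Genes of germ cell genome defence held KO-early bins about as often as genes in general. In a list of 33 such genes there were 4 (12.1%), against 1 (3.03%) with a het-early bin. Over all genes the shares were 10.5% and 5.95%, so KO-early bins were found in more genes in general. The 4 genes with a KO-early bin belong to the piRNA pathway, which guides transposon silencing. Mov10l1, a helicase needed to make piRNAs, had 3 KO-early bins, all in extensions and all called in the 4 postnatal lists. Its whole body had 12 called bins in het against 18 in KO at E13.5, then 16 and 17 at E16.5, 15 and 16 at P0, and 23 and 24 at P3. Tdrd9, another piRNA helicase, had 3, of which 2 were in separate sites, and all 3 were called in the 4 postnatal lists. Its body had 4 called bins in het against 10 in KO at E13.5, and 7 in each at E16.5. Henmt1, which methylates the 3′ end of piRNAs, had 1 KO-early bin in an extension, called in the 4 postnatal lists. Spocd1, which links piRNAs to DNA methylation, had 1 in an extension, called in both genotypes at P3 and in neither at P0.

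Of 39 genes of meiosis, 5 (12.8%) held a KO-early bin and 2 (5.13%) a het-early bin, against 10.5% and 5.95% of all genes. Mei4, needed for meiotic DNA breaks, had 5, of which 4 were in separate sites. All 5 were called in het at P0 and in both genotypes at P3, and 3 were called in KO at P0. Its partner Rec114 and Mei1 had 1 each, in separate sites, Mlh3, a mismatch repair gene of crossing over, had 1 in an extension, and Terb1, which attaches telomeres to the nuclear envelope, had 2 in extensions. The single bin in Mei1 was called after birth in P0 KO and in no other list. Of 25 genes for H3K9 methylation and heterochromatin factors 1 held a KO-early bin, Morc3, a relative of Morc1, and that bin was called in all 4 postnatal lists. Morc1 itself held none.

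At the ends of genes, 92 of the 5512 separate sites (1.67%) overlapped a 1 kb window at an end of 92 protein-coding genes. Counted by bins, such windows held 1.45% of separate KO-early bins and 1.47% of separate het-early bins, against 3.09% of all bins. The sites named below are therefore examples and show no preference for gene ends. The longest was the 5 kb run at Olfr1184 (chr2:88484001-88489000), whose promoter window is printed above. Peaks covered 0 kb in het against 4.97 kb in KO at E13.5 and 5 kb in both at E16.5. They covered 4.34 kb in het against 3.57 kb in KO at P0, and 2.78 kb in het against 4.24 kb in KO at P3. Among the genes named by the rule, Olfr1135, Olfr168 and Vmn2r95 are further receptor genes with such a site, and other receptor genes outside the rule had one as well. At Olfr168 all 3 kb were covered in each of the 7 lists other than E13.5 het.

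Skint4, of a family with roles in skin T cells, had a 4 kb separate site (chr4:112070001-112074000) with 0 kb in het against 3.56 kb in KO peaks at E13.5. With het first, E16.5 peaks covered 3.58 and 3.81 kb of it, P0 peaks 1.26 and 2.18 kb, and P3 peaks 1.00 and 0 kb. At Mmp9, a gelatinase gene, a 3 kb site had 2.81 kb in KO peaks at E13.5, 3 kb in het against 2.72 kb in KO at E16.5, and no cover in any postnatal list. At Septin9, a gene of the septin cytoskeleton, a 3 kb site was covered in full at E16.5 and over 0.55 to 1.17 kb in the postnatal lists. Sites at Gm281 and Ube4a had at most 1.15 kb in any postnatal list. Gene-end sites thus ranged from calls in every later list to none after E16.5.

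Hairpins of 4 microRNAs in the RefSeq table lay in KO-early bins. The one in a separate site was Mir770 (chr12:109563692-109563785, + strand), in the imprinted Dlk1-Dio3 region. Its bin was called in E13.5 KO and both E16.5 lists, and after birth at P3 in het only. Its mature sequences are printed 5′ to 3′ with the seed, bases 2 to 8, in capitals, and the seeds differ.
mmu-miR-770-5p: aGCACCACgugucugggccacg
mmu-miR-770-3p: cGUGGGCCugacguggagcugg
The hairpins Mir680-1, Gm51281 and Gm51270 lay in extensions. The bins of Mir680-1 and Gm51281 were called in no postnatal list, and that of Gm51270 was called in all 4.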

How the data were processed

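The authors deposited 8 H3K9me3 peak lists, 1 per genotype and stage, with 3 columns (chromosome, start and end of a peak in base pairs) and no other value such as a score. Per the submitters' processing notes the build was mm10 and the tools were bcl2fastq 2.20, cutadapt 1.18, Bowtie2 2.3.4.1, deepTools 3.5.0 and HOMER 4.10. The peak caller's settings, the use of the H3 libraries and the handling of the 2 samples of a group are not given in the sources used here. The lists name no replicate and were treated as 1 pooled call set per group. Precision is therefore limited to counting error, and a bin that was not called may still carry the mark below the authors' threshold. The H3 samples were not analysed here.

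Coverage of 1 kb bins, runs, distances and gene overlaps were computed with Python 3.11.15 and NumPy 2.4.6, and the search for runs was tested on simulated peaks. The 2 or fewer mitochondrial peaks of a list were dropped. Genes, promoter and microRNA sequences came from RefSeq tables of GRCm38.p6. The gene table has gene starts and ends without exons, so exons, introns and UTRs were not told apart. The sites and gene lists were chosen with earlier results of these data known. Named are the 10 longest runs, the 5 separate sites with the longest KO peaks and the 5 farthest from het peaks, the 10 genes with the most KO-early bins, 10 genes with a separate site at a gene end, listed germ cell, meiosis and H3K9 genes with a KO-early bin, the longest run of each course after birth, and the chromosomes at both ends of the density range. One gene that this rule names is not reported here. No p-value was computed. Alternatives were other thresholds, bin sizes, list sizes, definitions of an extension and gene margins.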

Additional observations from a re-analysis of the deposited data

How the results depend on the processing

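No paired analysis was possible because each group had 1 peak list without a replicate number, and for the same reason no sample could be left out in turn. Cutting the E13.5 KO list to the size of the het list, and recomputing the P3 het difference, were added after seeing the data. No alternative reversed the sign of a difference or took the ratio to below 1, but 1 turned the larger class of runs from extensions to separate sites. The 21541 bins became 42970 with 500 bp bins and 10833 with 2 kb bins, as follows from their size, and 12758 when a bin could hold no base of an E13.5 het peak. The 16498 runs became 9795 with 2 kb bins, 9046 with the longer 50% of each list and 9540 with no het base. The share of separate sites, 33.4%, was 34.6% and 24.2% when 25% and 75% of a bin had to be covered, 25.7% with 500 bp bins, 22.5% with equal list sizes, 28.6% with the KO list cut, 35.3% without 1001 bp peaks, and 57.5% with no het base, which by construction leaves out bins that het peaks enter. Counting a het peak within 1 kb or 5 kb as existing gave 32.7% and 24.7%. Joining peaks closer than 1 kb changed nothing, since no peaks of a list were closer than 1499 bp. The share called in all 4 postnatal lists, 53.4%, was 52.0% at 75% cover, 52.6% with the bins shifted by 500 bp and with 2 kb bins, 51.1% with equal list sizes, 52.2% with the longer 50% and 49.4% with no het base. The gene body share, 19.9%, was 21.1% at 25% and 18.4% at 75% cover, 17.98% with equal list sizes, 16.47% with the longer 50%, 19.13% with no het base and 24.7% with 5 kb added to gene ends. The ratio to het-early bins, 2.08, was 1.84 with equal list sizes, 1.80 with the KO list cut, 2.26 without 1001 bp peaks and 2.28 with no het base. The P3 het difference from het-early bins, -5.80 points, was -7.60 at 75% cover, -9.50 with the longer 50% and -7.35 without 1001 bp peaks. The cause of these shifts was not tested.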

Other observations

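The X chromosome was left out by the choice of autosomal bins. By the same calls it held 1170 bins, 9.91% of its 11810 bins called in both E16.5 lists, against 7.56% to 9.57% on the autosomes. It held 523 het-early bins, a ratio of 2.24. Its bins formed 875 runs, of which 34.5% were separate sites. The Y chromosome held 12 such bins in 10 runs.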
